A study of Mus musculus with 9 samples.

Results

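The data described here compare the hypothalamus of AAV-Cre mice whose weight label was Obese with that of AAV-GFP mice, over the genes outside the immune response as well as within it, with attention to genes that fell and to what each library contributed. The comparison was chosen by sample labels alone and used 6 of the 9 libraries, 3 from AAV-Cre mice labelled obese and 3 from AAV-GFP mice. All mice were males of the C57/BL6 strain, homozygous for the floxed Snord116 allele (Snord116tm1Uta/J), and were injected as adults into the mediobasal hypothalamus. Cre was driven by a CAG promoter and GFP by a CMV promoter, and the Cre vector was prepared at a much higher titre, so that the groups differed in vector as well as in Cre. Brains were frozen 10 weeks after injection. Regions were captured by laser where Cre protein was stained in neighbouring sections, with matching regions in AAV-GFP mice, so the presence of Cre transcript was set by the selection. A library was made from each mouse. The titles and weight labels of the AAV-Cre samples contradict each other: the samples labelled obese have titles without that word, and those labelled nonobese have titles with it. Groups were named by the weight label, and the AAV-Cre mice labelled nonobese appear only where they show how a gene or class of genes differed. Snord116 itself was not analysed here.

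Snord116 is a cluster of small nucleolar RNAs within the imprinted region that is lost in Prader-Willi syndrome, and the mediobasal hypothalamus holds the arcuate and ventromedial nuclei, whose neurons regulate appetite and body weight. A captured region contains neurons, astrocytes, cells of the oligodendrocyte lineage, microglia and vessels. Its RNA is therefore a mixture, and after injury or infection astrocytes raise filament and acute-phase genes while lymphocytes and microglia add genes of their own. In such material fewer cells of a type and less RNA per cell cannot be told apart.

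Expression is given as signal, the reads of a gene divided by a scaled library size, on the scale of CPM. Total reads were 4013871, 4983985 and 4954160 in AAV-GFP mice and 4345705, 4611358 and 4137999 in AAV-Cre mice, and the floor of 3 reads corresponded to a signal between 0.574 and 0.748 in these libraries, which covers counting error only. Gfp was at 79, 67 and 62.7 in AAV-GFP mice and at 0 reads in each AAV-Cre library. Cre was at 1330.2, 8557 and 235 in AAV-Cre mice and at 0.249, 0.957 and 0 in AAV-GFP mice. Markers of the labelled tissue were present, since 15 of 15 pan-neuronal genes and 12 of 13 arcuate neuropeptides were measured in the entries tested. Pomc, the melanocortin precursor of the arcuate nucleus, ranged from 8.16 to 100.2 in AAV-GFP mice and from 4.65 to 82.8 in AAV-Cre mice. The captured regions thus varied widely in arcuate transcripts within both groups.

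Changes were tested on log2(signal + 1) with limma, and log2 fold changes (log2 FC) are given with their SE, for 3 mice against 3. A change was called at an FDR under 0.1. By that rule 57 of the 13506 entries rose in AAV-Cre mice labelled obese (0.422%) and 18 fell (0.133%). Immune genes, as marked by marker lists and symbol patterns, provided 38 of the 57 and none of the 18. The remaining 19 entries that rose included Cre, and the 18 that fell included Gfp. The signals of all 3 AAV-Cre mice lay above those of all 3 AAV-GFP mice for 970 entries (7.18%) and below them for 982 (7.27%). The median log2 FC of all entries was -0.04.

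The genes that fell were of several functions. Among the 17 besides Gfp, log2 FCs ran from -3.07 to -0.65, and in each the values of the groups did not overlap. They are described in turn by what they are known to do.

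Fa2h had the largest fitted decrease of the 17. It was the called member of the myelin list. The signal of Fa2h (chr8:111345135-111393824 of GRCm38), the enzyme that hydroxylates fatty acids for myelin lipids, was 7.23, 10.7 and 28.5 in AAV-GFP mice and 0, 2.27 and 0.465 in AAV-Cre mice. Fa2h was at or under the floor in AAV-Cre libraries 1 and 3 and fell in the group as a whole (log2 FC -3.07 ± 0.71, FDR 0.0563). Plxnb3, a semaphorin receptor of the plexin family, was at 30.7, 13.4 and 17.7 in AAV-GFP mice and 4.05, 0.908 and 3.25 in AAV-Cre mice. Its highest value in AAV-Cre mice was below its lowest in AAV-GFP mice, and it fell by a similar amount (log2 FC -2.57 ± 0.62, FDR 0.0755).

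Receptors and surface proteins formed another group among the genes that fell. Prlr (chr15:10177238-10349180), the prolactin receptor, was at 114, 79.7 and 68.2 in AAV-GFP mice and 36.4, 33.1 and 12.8 in AAV-Cre mice. It was lowest in AAV-Cre library 3 and its mean was 31.5% of that in AAV-GFP mice (log2 FC -1.73 ± 0.36, FDR 0.0332). Prlr was also the called member of a list of choroid plexus markers, of which 5 were tested with a median of -0.58. The list made up 0.0087% to 0.0157% of reads in AAV-Cre mice and 0.017% to 0.0206% in AAV-GFP mice, ranges that did not overlap. Reads of Prlr are counted in that share, so the gap is not separate from its own decrease. The part of choroid plexus in the decrease was not tested. Gpr26, an orphan G protein-coupled receptor of the brain, was at 62.3, 93.3 and 62.3 in AAV-GFP mice and 29.7, 31.1 and 16.5 in AAV-Cre mice. Each of the AAV-Cre libraries held less than any AAV-GFP library (log2 FC -1.49 ± 0.31, FDR 0.0332). Efnb2, a membrane-bound ligand of Eph receptors, was at 62.1, 41.7 and 56.7 in AAV-GFP mice and 20.7, 23.1 and 11.4 in AAV-Cre mice. Its decrease was of the same order in libraries 1 and 2 and larger in library 3 (log2 FC -1.53 ± 0.35, FDR 0.0563). Lypd1, a membrane-anchored protein that binds nicotinic acetylcholine receptors, was at 23.4, 21.4 and 17.9 in AAV-GFP mice and 0.9, 1.36 and 5.34 in AAV-Cre mice, and lost most of its signal in all 3 AAV-Cre libraries (log2 FC -2.84 ± 0.59, FDR 0.0332). A part of its exons, 17.1% of the bases, lies opposite Gpr39 on the other strand.

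Genes of exocytosis, neuronal chloride balance and neuronal metabolism also fell. Stxbp6 (chr12:44852484-45074709), which binds SNARE proteins, was at 31.7, 19.3 and 28.2 in AAV-GFP mice and 2.25, 9.08 and 1.16 in AAV-Cre mice. AAV-Cre library 2 kept the most Stxbp6 but was still below the AAV-GFP libraries (log2 FC -2.70 ± 0.57, FDR 0.0332). Stxbp5l, a tomosyn that restrains SNARE assembly, was at 109.7, 71.2 and 89.7 in AAV-GFP mice and 48.1, 22 and 52.7 in AAV-Cre mice. Here library 2 was the lowest (log2 FC -1.19 ± 0.30, FDR 0.0927). Slc12a5 (chr2:164960802-164999731), the neuronal potassium-chloride cotransporter KCC2 that keeps chloride low and GABA inhibitory, was at 356, 355 and 348 in AAV-GFP mice and 206, 223 and 230.2 in AAV-Cre mice. The values within each group were close together, and the mean in AAV-Cre mice was 62.3% of that in AAV-GFP mice (log2 FC -0.68 ± 0.15, FDR 0.0559). Eno2, the neuronal enolase of glycolysis, was at 423, 346 and 407 in AAV-GFP mice and 248, 278 and 224 in AAV-Cre mice, which was a mean of 63.8% (log2 FC -0.65 ± 0.16, FDR 0.0755).

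Neurochondrin, encoded by Ncdn and linked to neurite outgrowth and synaptic plasticity, was at 285, 309.8 and 329 in AAV-GFP mice and 162.7, 231 and 156 in AAV-Cre mice. AAV-Cre library 2 stood nearest to the AAV-GFP mice (log2 FC -0.77 ± 0.18, FDR 0.0563). Kifc2, a kinesin motor of neurons, was at 129.9, 119 and 94.2 in AAV-GFP mice and 46.6, 68.5 and 44.4 in AAV-Cre mice and showed the same order of libraries (log2 FC -1.11 ± 0.24, FDR 0.0402). The gene Bend6 (chr1:33852052-33907816), a BEN domain corepressor of Notch targets, had the lowest FDR of the genes that fell apart from Gfp. Its signal was 142, 137 and 154 in AAV-GFP mice and 68.4, 68.3 and 35.8 in AAV-Cre mice, about level in the AAV-GFP mice and lowest in AAV-Cre library 3 (log2 FC -1.37 ± 0.25, FDR 0.0119).

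The others that fell were of mixed function. Rian (chr12:109603940-109661716), a maternally expressed noncoding RNA of the imprinted Dlk1-Dio3 region that hosts small nucleolar RNAs, was at 576, 587 and 661 in AAV-GFP mice and 328, 459 and 369.6 in AAV-Cre mice. It was the most abundant of the genes that fell, and AAV-Cre library 2 was again the nearest to AAV-GFP mice (log2 FC -0.67 ± 0.15, FDR 0.0559). Tecpr1, which acts in the fusion of autophagosomes with lysosomes, had a log2 FC of -1.21 (FDR 0.0563), and Ppp1r13b, a p53-binding protein, one of -1.19 (FDR 0.0414). The entry ENSMUSG00000030653 (Gm45837) was also lower (log2 FC -1.08 ± 0.26, FDR 0.0645), but 99.2% of its exonic bases are shared with Arap1 and Pde2a on the same strand, so the gene behind its reads is uncertain. The plot of genes that fell shows their values in each library.

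**Figure D1:**
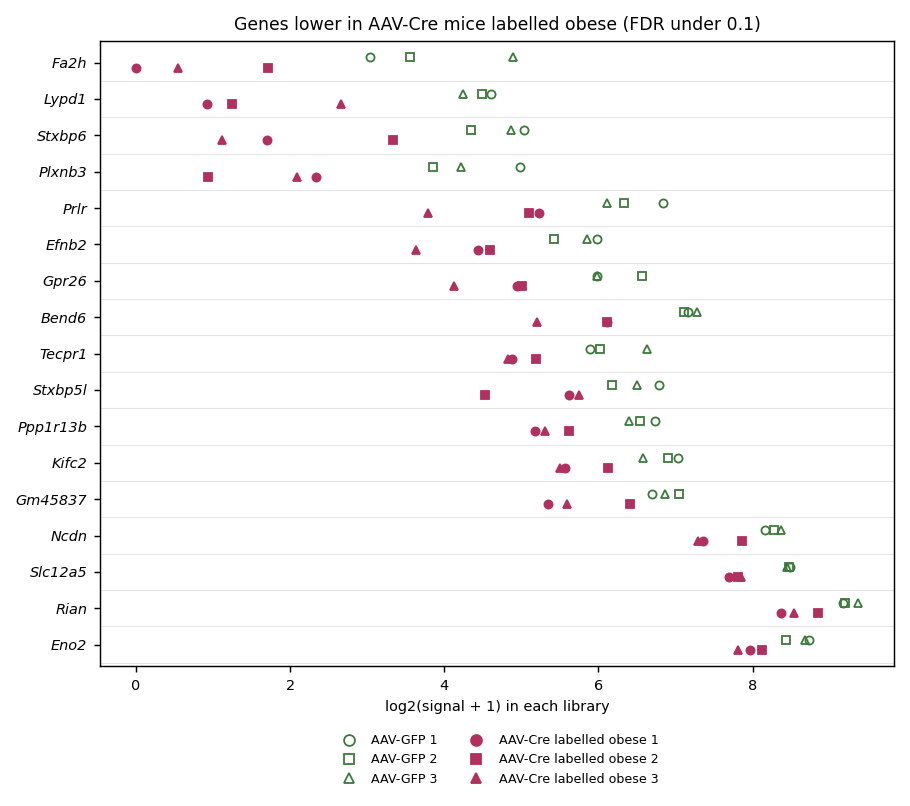
Signal of the 17 genes called lower, Gfp left out, in the 3 AAV-GFP libraries (open green) and the 3 libraries of AAV-Cre mice labelled obese (filled red), on the horizontal axis as log2(signal + 1), with a marker shape for each replicate number. In every gene the red points lie to the left of the green ones, by a log2 FC of -3.07 for Fa2h at the top and of -0.65 for Eno2 at the bottom.

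Several lists of neuronal genes had medians below that of all entries, although few of their members passed the test singly. Of 15 pan-neuronal genes, 13 had a log2 FC below 0 and Eno2 was called. The median was -0.23. None of 20 genes of synaptic vesicle release was called, 7 were lower without overlap and 0 higher, and the median was -0.25. Among 43 GABA and glutamate receptor subunits 9 were lower without overlap and 0 higher, with a median of -0.37, and among 88 sodium, calcium and potassium channel genes 15 were lower and 2 higher, with a median of -0.33. These shares can be set beside the 7.27% of all entries that were lower without overlap. Some neuronal lists were not lower. The median was 0.30 for 8 hypothalamic neuropeptides outside the arcuate nucleus, -0.01 for 15 genes of transmitter synthesis and transport and -0.03 for 11 of prohormone processing, with 0 called in each. Without AAV-Cre library 2 that of the 8 neuropeptides became -0.53.

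Some members of these lists came near the threshold. Slc17a6, the vesicular glutamate transporter of hypothalamic excitatory neurons, was at 169.5, 208 and 184 in AAV-GFP mice and 76, 146 and 84.3 in AAV-Cre mice (log2 FC -0.92 ± 0.24, FDR 0.105). Cacna2d1, an auxiliary calcium channel subunit, was at 294, 308 and 315 in AAV-GFP mice and 121, 187 and 154 in AAV-Cre mice (log2 FC -1.01 ± 0.26, FDR 0.105). For both genes the highest AAV-Cre value was that of library 2, and the groups did not overlap. Glra3, a glycine receptor subunit, had a log2 FC of -1.58 (FDR 0.183), the potassium channel genes Kcnq3 and Kcna1 had log2 FCs of -1.53 (FDR 0.221) and -1.50 (FDR 0.175), and the AMPA receptor subunit Gria2 one of -0.48 (FDR 0.221). Bdnf, a neurotrophin of ventromedial neurons, was at 15, 13.4 and 14.8 in AAV-GFP mice and 0.225, 7.26 and 0 in AAV-Cre mice (log2 FC -2.83 ± 0.83, FDR 0.185). It was at or under the floor in AAV-Cre libraries 1 and 3, and was not called. The pan-neuronal list made up 0.606% to 0.666% of reads in AAV-GFP mice and 0.465% to 0.627% in AAV-Cre mice. AAV-Cre library 2 lay within the range of the AAV-GFP mice and the others below it.

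Markers of the ventromedial hypothalamus had the lowest median of the neuronal lists. All 9 tested had a log2 FC below 0, with a median of -0.92 and 0 called. Gda, a guanine deaminase, was at 191, 254 and 109.5 in AAV-GFP mice and 31.5, 147 and 21.8 in AAV-Cre mice (log2 FC -1.88 ± 0.48, FDR 0.108), with AAV-Cre library 2 inside the range of AAV-GFP mice. The AAV-GFP libraries themselves differed, since the median difference of the list from the AAV-GFP mean was 0.44, 0.48 and -1.0 in them and -1.32, -0.16 and -1.35 in the AAV-Cre libraries.

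Cholesterol synthesis was the metabolic list with the lowest median. Of 25 genes, 21 had a log2 FC below 0 and 6 were lower without overlap (7.27% of all entries were), against 0 higher, with a median of -0.53 and 0 called. Sqle, the squalene epoxidase, was at 73.6, 61.7 and 51.3 in AAV-GFP mice and 34.9, 32.7 and 26.7 in AAV-Cre mice (log2 FC -0.96 ± 0.29, FDR 0.21). Its values did not overlap between the groups, and AAV-Cre library 3 held the least. Fdft1, the squalene synthase, had a log2 FC of -0.73 (FDR 0.323). Without AAV-Cre library 2, 4 genes of the list were called lower and 1 higher, against 2.21% and 3.12% of all entries. The median difference from AAV-GFP mice was -0.52, -0.19 and -0.69 in the 3 AAV-Cre libraries and between -0.01 and 0.03 in the AAV-GFP libraries.

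In the oligodendrocyte lineage the test called 1 of 16 oligodendrocyte and myelin genes, Fa2h, and 0 of 8 genes of precursors, with medians of -0.35 and -0.50. The median difference of the myelin list was -0.11, -0.83 and 0.10 in the 3 AAV-Cre libraries, and without AAV-Cre library 2 its median was -0.11. Mbp, myelin basic protein, was at 311, 392 and 537 in AAV-GFP mice and 259, 294 and 309 in AAV-Cre mice (log2 FC -0.49 ± 0.22, FDR 0.45). It was lower without overlap, AAV-GFP library 3 held the most, and it did not pass the threshold. Of the precursor genes, Gpr17 and Olig1 had log2 FCs of -1.0 (FDR 0.341) and -1.14 (FDR 0.317). The myelin list made up 0.135% to 0.218% of reads in AAV-GFP mice and 0.0939% to 0.136% in AAV-Cre mice, ranges that overlapped.

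Further lists had medians below that of all entries and at most 1 call. Their members without overlap can be set beside 7.27% of all entries for lower and 7.18% for higher. The circadian clock list had 6 of 21 genes lower without overlap and 0 higher (median -0.19), with log2 FCs of -0.80 (FDR 0.154) for the transcription factor gene Tef and -1.20 (FDR 0.308) for the clock repressor Per2. Axon guidance and adhesion had 8 of 36 lower and 2 higher (median -0.22), Efnb2 being the called member. Glycolysis had 7 of 21 lower and 0 higher (median -0.16), Eno2 being the called member. The nuclear-encoded respiratory chain had 12 of 86 lower and 3 higher (median -0.18) and 0 called. Nuclear receptors had 5 of 23 lower and 0 higher (median -0.19) and 0 called.

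Outside the immune class, the genes that rose included astrocyte genes. Gfap (chr11:102887336-102900912), the intermediate filament of astrocytes, was at 83, 60.3 and 10.1 in AAV-GFP mice and 369, 129.8 and 640.1 in AAV-Cre mice. The AAV-GFP libraries differed among themselves and the last was low, yet all AAV-Cre libraries were above them and the mean was 7.42 times that of AAV-GFP mice (log2 FC 3.03 ± 0.55, FDR 0.0119). Aqp4, the water channel of astrocyte endfeet, was at 88, 116 and 82.1 in AAV-GFP mice and 245, 123.5 and 339 in AAV-Cre mice. AAV-Cre library 2 was just above the AAV-GFP range and the others were well above it (log2 FC 1.19 ± 0.27, FDR 0.0559). Serpina3n (chr12:104406729-104414329), an acute-phase protease inhibitor of reactive astrocytes, was at 103, 57.4 and 50.9 in AAV-GFP mice and 211, 168 and 220.5 in AAV-Cre mice, and its 3 AAV-Cre values were close together (log2 FC 1.55 ± 0.31, FDR 0.0223). Serpina3n belongs to a cluster of near-identical genes among which reads can be divided.

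Not all astrocyte genes moved with these. Of 16 astrocyte markers 2 were called, Gfap and Aqp4 (0.422% of all entries were called higher), and the median was 0.18. Without overlap 6 were higher (7.18% of all entries) and 1 lower (7.27%). Atp1b2, a sodium pump subunit of astrocytes, was at 352, 391 and 377 in AAV-GFP mice and 609, 456 and 602 in AAV-Cre mice (log2 FC 0.56 ± 0.16, FDR 0.179), higher without overlap but not called. The glutamate transporters Slc1a2 and Slc1a3 had log2 FCs of -0.10 (FDR 0.861) and 0.19 (FDR 0.72). Of 8 reactive astrocyte genes measured, Serpina3n and Cd44 were called, 4 were higher without overlap and 0 lower, and the median was 1.48. Cd44 is also carried by leukocytes and was counted in the immune class (log2 FC 3.46 ± 0.76, FDR 0.0482). The median difference of the reactive list ran from -1.16 to 1.21 among AAV-GFP libraries and from 0.37 to 1.94 among AAV-Cre libraries, so the ranges overlapped.

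Vcam1 and Igfbp5 rose as well. Vcam1, the adhesion molecule by which activated vessels bind leukocytes, was at 12, 16.9 and 16.1 in AAV-GFP mice and 72.4, 24.5 and 102 in AAV-Cre mice (log2 FC 1.87 ± 0.45, FDR 0.0716). Igfbp5 (chr1:72857932-72874884), a binding protein of insulin-like growth factors, was at 92, 116 and 107 in AAV-GFP mice and 306, 171 and 321 in AAV-Cre mice (log2 FC 1.29 ± 0.23, FDR 0.0117). In both genes AAV-Cre library 2 was above the AAV-GFP range and below the other AAV-Cre libraries. Igfbp5 was the only one of 25 tested genes of insulin and IGF signalling that was called. Vcam1 was the called member of 5 tested genes of endothelial adhesion and activation, of which 3 had a log2 FC above 0. The median of that list was 0.22, and 1 of the 5 was higher without overlap (7.18% of all entries). Of 15 endothelial markers 0 were called and the median was 0.30.

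Rrbp1, Tmbim6, Eif3a and Rpl37, of the secretory pathway and of translation, rose by smaller amounts. Rrbp1 (chr2:143947395-144011263), which tethers ribosomes to the endoplasmic reticulum, was at 112, 123.7 and 103 in AAV-GFP mice and 311, 140.0 and 294 in AAV-Cre mice (log2 FC 1.05 ± 0.24, FDR 0.0559). Tmbim6, an endoplasmic reticulum membrane protein that restrains cell death, was at 115, 103 and 104 in AAV-GFP mice and 197, 156 and 208 in AAV-Cre mice (log2 FC 0.78 ± 0.19, FDR 0.0896). Rrbp1 was raised mainly in AAV-Cre libraries 1 and 3 and Tmbim6 in all 3. Eif3a, the large subunit of the initiation factor eIF3, was at 432, 443 and 434 in AAV-GFP mice and 662, 614 and 663 in AAV-Cre mice, with a spread within groups far below the difference between them (log2 FC 0.57 ± 0.14, FDR 0.0878). Rpl37, a ribosomal protein, was at 239, 187 and 159 in AAV-GFP mice and 367, 363 and 294 in AAV-Cre mice (log2 FC 0.82 ± 0.19, FDR 0.0602). Ribosomal protein genes have many near-identical pseudogenes, which can divide their reads.

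The wider lists had medians above that of all entries and few calls. Of 27 genes of endoplasmic reticulum stress and chaperones, 8 were higher without overlap and 0 lower, the median was 0.37 and 0 were called. Pdia4, a disulphide isomerase, was at 118, 94.2 and 92.2 in AAV-GFP mice and 228, 122 and 267 in AAV-Cre mice (log2 FC 0.95 ± 0.26, FDR 0.142), and Pdia3, Calr and Hsp90b1 had log2 FCs of 0.59 (FDR 0.179), 0.44 (FDR 0.251) and 0.49 (FDR 0.311). Of 83 cytosolic ribosomal protein genes 20 were higher without overlap and 2 lower, against 7.18% of all entries that were higher. The median was 0.21 and Rpl37 alone was called. Of 64 translation factors Eif3a alone was called, 6 were higher without overlap and 2 lower, and the median was 0.02. The list of ribosomal protein genes held 0.76% to 0.803% of reads in AAV-GFP mice and 0.848% to 1.02% in AAV-Cre mice, ranges that did not overlap. Plasma cells and other immune cells are rich in secretory and ribosomal transcripts, and AAV-Cre libraries 1 and 3 were highest in both lists and in immunoglobulin genes, which made up 0.0197% to 1.36% of reads in AAV-Cre mice and 0.00115% to 0.00221% in AAV-GFP mice. The part of immune cells in these lists was not tested.

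Among 36 lysosome and autophagy genes the median was 0.45 and Ctss, a cathepsin of the immune class, was the called member (0.422% of all entries were called higher). Without overlap 3 were higher (7.18% of all entries) and 1 lower (7.27%). Ctsb and Ctsd, cathepsins found in most cells, had log2 FCs of 0.83 (FDR 0.171) and 1.0 (FDR 0.155). Apoe, the lipid carrier of astrocytes and microglia, was at 2139, 2109 and 2206 in AAV-GFP mice and 3995, 1928 and 6132 in AAV-Cre mice (log2 FC 0.75 ± 0.23, FDR 0.223). In all 3 genes AAV-Cre libraries 1 and 3 were high and library 2 lay within or below the AAV-GFP range. The 12 microglial markers had a median log2 FC of 1.19 and 0 calls, and median differences of 1.98, 0.18 and 1.76 in the AAV-Cre libraries. The part of microglia in the lysosomal list was not tested.

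The other genes that rose outside the immune class fell into 2 kinds. Some are known from immune cells although the lists did not hold them. Ptpn6, the phosphatase SHP-1 of blood cells, was at 2.49, 2.11 and 2.33 in AAV-GFP mice and 141, 7.04 and 90.8 in AAV-Cre mice (log2 FC 3.83 ± 0.81, FDR 0.0332). Gm43302 (log2 FC 5.17 ± 0.91, FDR 0.0109) shares 81.6% of its exonic bases with the interferon-induced genes Gbp6 and Gbp10 on the same strand, so its reads may be theirs, and Gm1966 (log2 FC 3.91 ± 0.91, FDR 0.0563) is annotated as a pseudogene. The others were the vault RNA Vaultrc5 (log2 FC 1.74 ± 0.41, FDR 0.0563), the ubiquitin ligase Rnf115 (log2 FC 1.22 ± 0.28, FDR 0.0563), the chromatin remodeller Chd7 (log2 FC 1.20 ± 0.30, FDR 0.098), Ttc1 (log2 FC 1.06 ± 0.26, FDR 0.092) and Fgfr1op2 (log2 FC 0.95 ± 0.24, FDR 0.0868). Rnf115 was at 32.2, 29.7 and 28.7 in AAV-GFP mice and 71.1, 63.3 and 82 in AAV-Cre mice, more than doubled in mean signal at 239% of that in AAV-GFP mice.

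**Figure D2:**
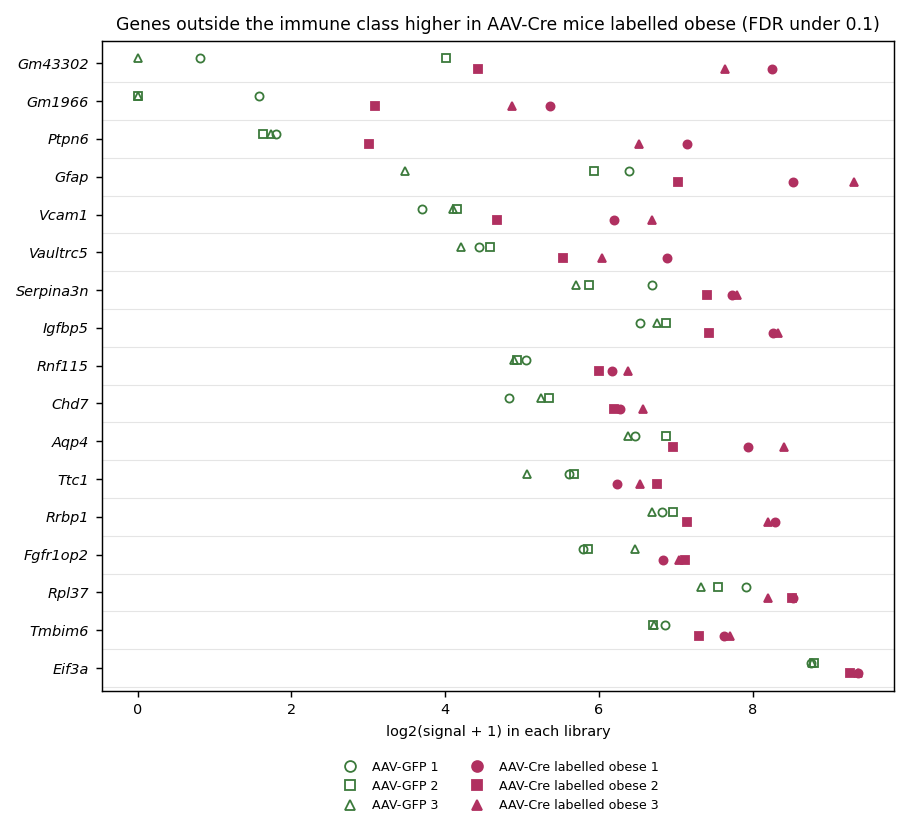
Signal of 17 of the 18 entries outside the immune class called higher, Cre left out, in AAV-GFP libraries (open green) and in AAV-Cre mice labelled obese (filled red), as log2(signal + 1), with a marker shape for each replicate number. AAV-Cre library 2 (squares) is the lowest red point for 14 of the 17 shown, as in Ptpn6 at 7.04 against 141 and 90.8.

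Some members of other lists had higher fitted values but did not pass the test, some of them without overlap between the groups. Trh, the thyrotropin-releasing hormone precursor, was at 3.74, 13.6 and 9.13 in AAV-GFP mice and 30.6, 30.2 and 69.5 in AAV-Cre mice (log2 FC 2.21 ± 0.64, FDR 0.178), and Vgf, a secreted neuropeptide precursor, was at 155, 105 and 73.6 in AAV-GFP mice and 219, 186 and 213 in AAV-Cre mice (log2 FC 0.94 ± 0.28, FDR 0.203). For both peptides the 3 AAV-Cre libraries, library 2 included, were above the AAV-GFP range, and neither gene was called. Nfe2l2, the NRF2 regulator of the oxidative stress response, had a log2 FC of 2.30 (FDR 0.147), Ccng1, a p53 target, one of 1.22 (FDR 0.128), and Jun, an immediate early gene, one of 1.14 (FDR 0.179). Vim, an intermediate filament of reactive astrocytes and immune cells, was at 25.9, 23.7 and 23.7 in AAV-GFP mice and 132, 24.3 and 99.2 in AAV-Cre mice (log2 FC 1.45 ± 0.47, FDR 0.237), with AAV-Cre library 2 inside the AAV-GFP range.

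Other lists had 0 calls and medians between -0.16 and 0.02. These were the 12 genes of the Prader-Willi locus and its neighbours (median -0.16), 24 genes of the primary cilium (-0.03), 11 of prohormone processing (-0.03), 72 splicing factors (-0.01), 34 of the constitutive proteasome (0.00) and 20 of the TCA cycle (0.02). The 7 genes that the study named for appetite and leptin signalling (Socs3, Pomc, Agrp, Npy, Lepr, Pcsk1 and Nhlh2) were not called either, with log2 FCs from -1.73 ± 0.92 for Agrp (FDR 0.552) to 2.36 ± 0.79 for Socs3 (FDR 0.254). Without AAV-Cre library 2, Agrp was called lower (log2 FC -2.83, FDR 0.0768), the remaining AAV-Cre libraries both being at 0 reads, so that this fold depends on the pseudocount.

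The libraries did not contribute equally. The immune class held 3.25%, 0.396% and 3.61% of reads in the 3 AAV-Cre libraries in order, against 0.33% to 0.395% in AAV-GFP mice. Over its 333 tested entries the median difference from the AAV-GFP mean was 2.72, 0.03 and 2.52. AAV-Cre library 2 therefore stood at the AAV-GFP level for the class as a whole. The largest immune changes were in genes of immunoglobulin chains, led by Ighg2c (log2 FC 9.15 ± 1.10, FDR 5.5e-05), Igkc (log2 FC 8.86 ± 0.87, FDR 2e-06), Ighg2b (log2 FC 7.88 ± 0.96, FDR 5.5e-05), Jchain (log2 FC 7.47 ± 0.98, FDR 0.000151) and Igha (log2 FC 7.04 ± 1.62, FDR 0.0563), whose constant regions share sequence so that reads may be divided among them.

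Genes outside the immune class were more evenly shared, as a description of entries that the test itself had picked. For the 38 immune entries that rose, libraries 1, 2 and 3 had medians of 44.9%, 11.8% and 42.8% of the summed log2 difference from AAV-GFP mice. For the 18 other entries that rose these were 38%, 22.3% and 38.7%, and for the 17 that fell 37.6%, 25.8% and 39.3%. Library 2 had the smallest difference in 38 of 38, 15 of 18 and 11 of 17 entries. In median log2 difference the genes that fell were at -1.27, -1.06 and -1.35 in the 3 libraries, and the immune entries that rose were at 4.46, 1.26 and 3.97. Cre transcript was highest in library 2 and lowest in library 3, the reverse of the order of the immune share of reads. In the AAV-Cre mice labelled nonobese Cre was at 4644, 5136 and 7064. Their immune class held 0.329%, 0.305% and 0.319% of reads, so library 2 was nearer to them than libraries 1 and 3 in both measures. A relation between Cre level and the immune class was not tested.

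**Figure D3:**
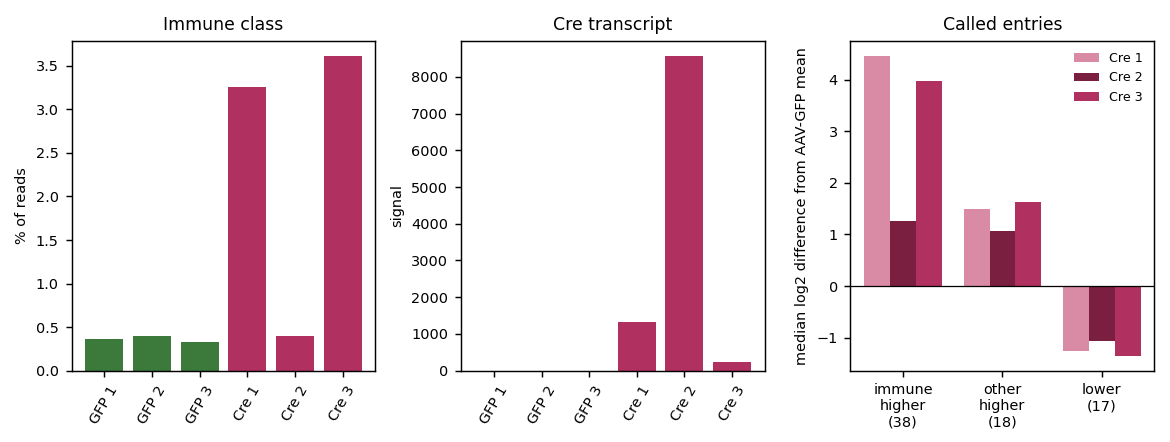
The left panel gives the percentage of reads in the immune class and the middle panel the Cre signal, for each of the 3 AAV-GFP and 3 AAV-Cre libraries labelled obese, and the right panel gives for each AAV-Cre library the median log2 difference from the AAV-GFP mean over 38 immune entries that rose, 18 others that rose and 17 that fell. AAV-Cre library 2 has the highest Cre bar (8557) and an immune bar at the AAV-GFP level, and in the right panel 1.26 for the immune entries, while its bar for genes that fell (-1.06) is close to those of the other libraries.

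The counts rested on single mice. Without AAV-Cre library 2, 422 entries were higher (3.12%) and 298 lower (2.21%), and all 38, 18 and 17 entries of the classes above were among them. Library 2 had the smallest difference in most of those entries, so their staying adds no support. Without library 1, 5 were higher and 4 lower, and without library 3, 9 and 3. Of the 38, 18 and 17 entries, 4, 0 and 2 were still called without library 1. The same numbers without library 3 were 6, 0 and 1. Without AAV-GFP library 1, 8 were higher and 1 lower, without AAV-GFP library 2, 38 and 4, and without AAV-GFP library 3, 18 and 5. When AAV-Cre library 2 was left out, more list members were called: 7 of 43 GABA and glutamate receptor subunits, 7 of 88 channel genes, 5 of 20 genes of synaptic vesicle release and 4 of 15 pan-neuronal genes were lower, while 10 of 83 ribosomal protein genes, 11 of 36 lysosomal genes and 5 of 27 endoplasmic reticulum genes were higher. Slc17a6, Cacna2d1, Gda, Bdnf, Agrp, Ctsb, Ctsd, Apoe and Vim were among the genes called only then among the fits described in this paragraph and the fit to all libraries. Some of them passed under other alternatives. Cacna2d1 was called with only the compared groups in the limma fit (FDR 0.0298), and Ctsb and Ctsd with DESeq2 (FDR 0.0181 and 0.0128).

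**Figure D4:**
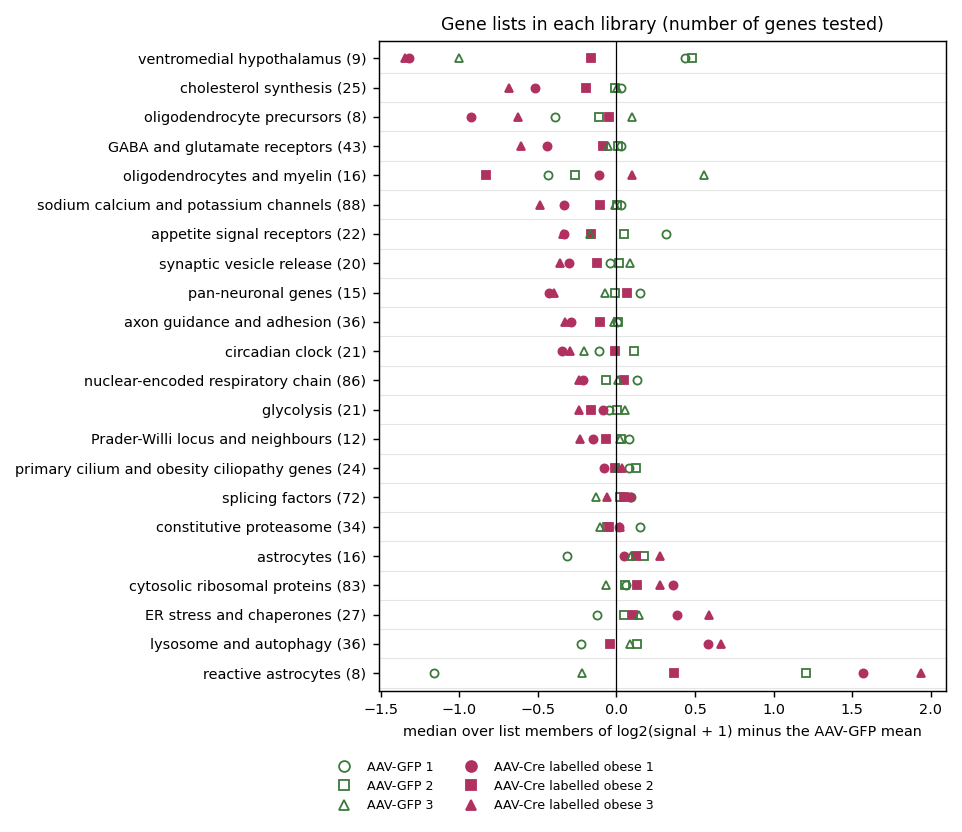
Each row is a gene list, with the number of genes tested, and each point is a library, placed at the median over the list of log2(signal + 1) minus the AAV-GFP mean (open green for AAV-GFP, filled red for AAV-Cre labelled obese, a shape for each replicate number). AAV-Cre libraries 1 and 3 (circles and triangles) lie left of 0 for pan-neuronal, vesicle release, receptor, channel, ventromedial and cholesterol synthesis genes and right of it for lysosomal and endoplasmic reticulum genes, while library 2 (squares) lies nearer 0 in most, as at -0.08 for GABA and glutamate receptors.

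The same genes were measured in AAV-Cre mice labelled nonobese, which share the AAV-GFP controls, so each comparison is given by its own values. None of the 38, 18 and 17 entries of the classes above was called against AAV-GFP in the nonobese mice, where the medians of their log2 FCs were -0.17, 0.15 and -0.15. Tested directly between the AAV-Cre groups, 35 of the 38 immune entries, 8 of the 18 others that rose and 9 of the 17 that fell differed at an FDR under 0.1. The share of all entries called in either of these tests is not given here, so the counts have no background beside them. The entries had also been picked with the same obese libraries. Fa2h was at 22.6, 17.8 and 13.9 in nonobese mice and differed by a log2 of -3.48 (FDR 0.0204). Slc12a5 was at 338, 311 and 364 and differed by -0.61 (FDR 0.0751). Serpina3n was at 66, 37.7 and 24.3 and differed by 2.31 (FDR 0.00109). The nonobese values of Fa2h and Slc12a5 lay above all 3 obese values, and those of Serpina3n below them.

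**Figure D5:**
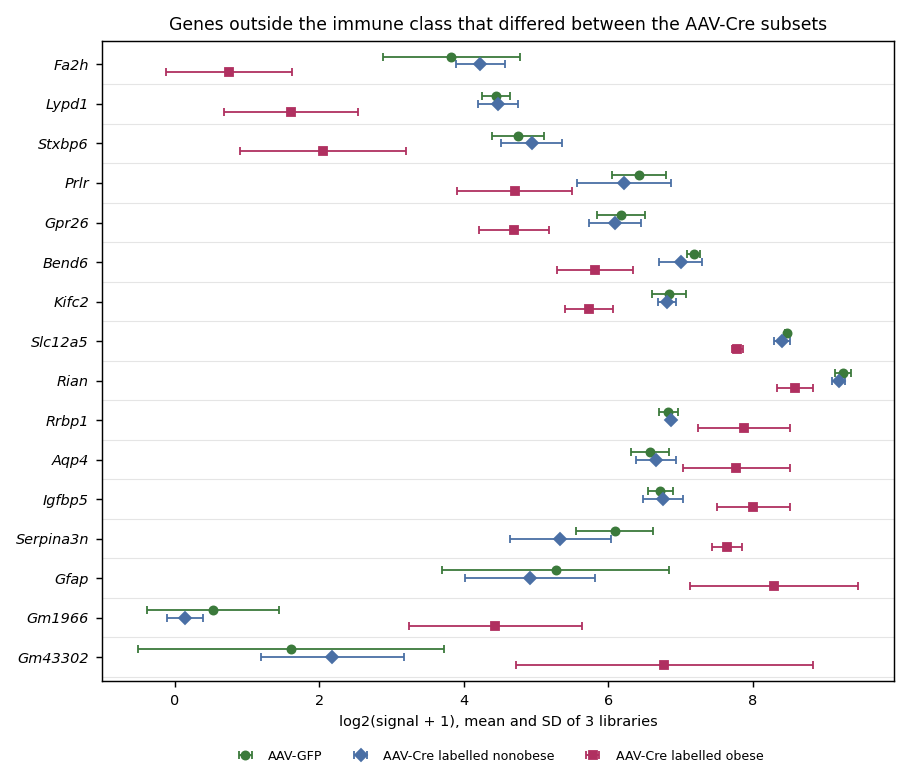
Mean log2(signal + 1) with SD over 3 libraries in AAV-GFP mice (green circles), AAV-Cre mice labelled nonobese (blue diamonds) and AAV-Cre mice labelled obese (red squares), for 16 entries outside the immune class that changed against AAV-GFP and also differed between the AAV-Cre groups at an FDR under 0.1. Red lies apart from both because the entries were picked for these differences. Blue and green lie close together in most rows, as for Igfbp5 at means of 105, 109 and 266 in signal.

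Promoters were searched for 4 motifs of factors known from inflammation and from neuronal gene silencing, on both strands of the window from 250 bases before to 50 after the RefSeq start (GRCm38.p6). An ISRE-like motif, as in interferon response elements, was found in 6 of 24 promoters of immune entries that rose, in 2 of 11 of the others that rose and in 0 of 13 of genes that fell, against 3.03% of the 10187 promoters of entries tested. The letters TTCNNNGAA, as bound by STAT factors, were in 3 of 11 promoters of the others that rose (Gfap, Rnf115 and Ttc1), in 2 of 24 of immune entries that rose and in 1 of 13 of genes that fell (Rian), against 6.55%. A kappa B-like motif was in 4 of 24, 1 of 11 and 1 of 13, against 5.20%. GGACAGCGC, the right arm of the neuron-restrictive silencer element, was in none of these and in 0.726% of the promoters of entries tested.

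The 250 bases before the start are shown for an immune gene, B2m, the light chain of MHC class I, and for a pair of genes that moved in opposite directions, Serpina3n and Eno2, with the matches in capitals. B2m was chosen for its matches after the search. Serpina3n held the 1 kappa B-like match among the 11 promoters of the others that rose, and Eno2 the 1 among the 13 of genes that fell. In B2m (chr2:122147437-122147686, plus strand) an interferon-type match and a kappa B-type match begin 139 and 126 bases before the start. Serpina3n (chr12:104406458-104406707, plus strand) and Eno2 (chr6:124769674-124769923, minus strand) hold the same 10 letters of the kappa B type, 171 and 158 bases before their starts, although Serpina3n rose and Eno2 fell. A match describes the letters only and is not evidence of binding.
B2m: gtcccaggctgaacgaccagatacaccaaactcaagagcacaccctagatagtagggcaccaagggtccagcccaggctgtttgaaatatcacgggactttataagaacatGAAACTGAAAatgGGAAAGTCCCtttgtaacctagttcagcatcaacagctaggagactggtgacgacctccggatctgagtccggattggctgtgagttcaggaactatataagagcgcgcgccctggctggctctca
Serpina3n: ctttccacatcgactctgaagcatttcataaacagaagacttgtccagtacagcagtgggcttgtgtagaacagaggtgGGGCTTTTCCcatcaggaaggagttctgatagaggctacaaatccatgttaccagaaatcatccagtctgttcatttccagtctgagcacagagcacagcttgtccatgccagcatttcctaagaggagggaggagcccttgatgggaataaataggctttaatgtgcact
Eno2: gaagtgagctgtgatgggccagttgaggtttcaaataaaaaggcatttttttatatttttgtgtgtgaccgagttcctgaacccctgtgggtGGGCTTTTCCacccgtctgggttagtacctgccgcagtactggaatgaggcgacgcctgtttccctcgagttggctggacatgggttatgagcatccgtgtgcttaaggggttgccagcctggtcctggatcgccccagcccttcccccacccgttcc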

How the data were processed

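RNA of laser-captured mediobasal hypothalamus was sequenced from 9 mice. As deposited by the authors, the values are signal, the reads of each gene divided by a library size that edgeR's TMM method had scaled, on the scale of CPM. The submitters' processing notes name CASAVA 1.7, TopHat2 2.0.11, HTSeq, edgeR, limma and GRCm38. In every library 100% of values were whole multiples of a single read (tolerance 0.01), so the whole read counts behind the values were recovered.

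From these values a pseudocount of 1 and log2 scaling gave the measure that limma 3.58.1 (under R 4.3.3) tested in a fit of all 3 groups with a variance trend. Of 13588 entries 13506 reached a signal of 1 in 3 or more libraries and entered the fit, with Benjamini-Hochberg adjustment over all of them (FDR). The pseudocount understates changes of low genes. The test had been planned for values of this scale and was tested on simulated data. Symbols and positions come from GENCODE M21, matched for 13446 entries, and promoters from RefSeq.

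Genes named are Cre and Gfp, each entry called lower, up to 25 called higher outside the immune class, the 5 largest immune changes, up to 3 members of each list by p and 3 by level with all called members, and 7 genes of the study. Some genes that this rule names are not reported here. The immune class joins marker lists and symbol patterns. Members and lists were chosen with earlier results of these data known. Alternatives used other pseudocounts (0.1 and 5), filters, groups in the fit, centring, no variance trend, a replicate block, leaving out each mouse, and count tests of recovered reads by edgeR 4.0.16 and by DESeq2 1.42.0. Body weight, food intake and other data of the study were not analysed here.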

Additional observations from a re-analysis of the deposited data

Results flagged for a closer look

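Of the entries shown outside the immune class that changed against AAV-GFP, 16 also differed between AAV-Cre mice labelled obese and those labelled nonobese in limma's test of that difference at an FDR under 0.1, and are listed for that reason. The share of all entries that differed in that test is not given here. Among those that fell, the log2 difference of obese from nonobese mice was -3.48 for Fa2h, -2.89 for Stxbp6, -2.86 for Lypd1, -1.52 for Prlr, -1.40 for Gpr26, -1.19 for Bend6, -1.07 for Kifc2, -0.61 for Slc12a5 and -0.61 for Rian. Among those that rose it was 4.59 for Gm43302, 4.29 for Gm1966, 3.39 for Gfap, 2.31 for Serpina3n, 1.25 for Igfbp5, 1.11 for Aqp4 and 1.01 for Rrbp1.

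Of these, the myelin enzyme gene Fa2h, the chloride transporter gene Slc12a5 and Serpina3n are examples of the contrast without overlap. Nonobese signals of 22.6, 17.8 and 13.9 for Fa2h and 338, 311 and 364 for Slc12a5 lay above all 3 obese values. Those of Serpina3n lay below all 3. Overlap in the other entries listed is not described here. The remaining entries shown that rose or fell against AAV-GFP had a difference between the AAV-Cre groups that did not pass the threshold, which does not show that the groups were alike.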

How the results depend on the processing

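The number of calls depended on the settings, and for each change below the cause was not tested unless stated. The 57 entries that rose, 18 that fell and 19 that rose outside the immune class became 24, 10 and 7 with pseudocount 0.1. With 5 they became 114, 29 and 52, and without a variance trend 3, 2 and 2. Without the trend, 0 of 38 immune entries that rose, 0 of 18 others and 0 of 17 that fell were still called. Cre and Gfp are not in these numbers. The counts became 206, 54 and 93 with edgeR's likelihood ratio test on the recovered reads. With DESeq2 on those reads, where 14 entries had no adjusted p, they were 217, 58 and 128. With only the compared groups in the fit, 6 fell, and the other counts stayed within 1.5 times of those reported. The remaining alternatives (a filter at 5, none at all, centring and edgeR's quasi-likelihood test) kept all 3 counts within 1.5 times.

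Leaving out each mouse in turn gave 5 to 422 entries that rose, 1 to 298 that fell and 1 to 245 that rose outside the immune class, the highest without AAV-Cre library 2. Without AAV-Cre labelled nonobese replicate 1, 12 rose outside the immune class. With a replicate block 137 rose, 63 fell and 67 rose outside the immune class, but the replicate numbers do not pair these mice: same-numbered mice had correlations of their deviations of -0.0088, -0.000248 and 0.0252, and library 1 of AAV-Cre correlated best with AAV-GFP library 2.

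Of 43 named genes that were called, 0 changed direction under any alternative, and only Cre and Gfp were called under every one. The groups did not overlap in any of the 18 other entries that rose or the 17 that fell. Leaving out a mouse could therefore not turn the sign of those entries, and their kept direction is no sign of stability. Of the 40 not called, 4 changed direction when a mouse was left out, with log2 FCs of -1.65 to 0.50 for Pomc, -0.81 to 0.27 for Npy, -0.47 to 0.089 for Pcsk1 and -0.034 to 0.86 for Lepr over the 9 fits.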

Other observations

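Lists not described above gave few further calls. Among 30 imprinted genes outside the Prader-Willi region Rian was the called member and the median log2 FC was -0.13. Asb4, an imprinted gene of hypothalamic neurons, was higher without overlap at 93.5, 81 and 77.3 in AAV-GFP mice and 144, 145 and 162.6 in AAV-Cre mice (log2 FC 0.84 ± 0.23, FDR 0.154). It stood at a like level in AAV-Cre libraries 1, 2 and 3 and did not pass the threshold. Of 30 genes of leptin and cytokine signalling 1 was called higher, and the median was 0.36. Without overlap 2 were higher (7.18% of all entries) and 1 lower (7.27%). The median differences were 0.53, -0.10 and 0.63 in AAV-Cre libraries 1, 2 and 3. Of 19 cell death genes 0 were called, 2 were higher without overlap (7.18% of all entries) and 1 lower (7.27%), and the median was 1.04, with median differences of 1.59, 0.16 and 1.48 in the AAV-Cre libraries.

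Stress and growth lists had 0 calls. The median was 0.17 for 24 genes of the oxidative stress response, 0.25 for 20 immediate early genes, 0.14 for 19 genes of growth factor and TGF beta signalling, 0.03 for 28 of Notch and Wnt signalling and -0.04 for 21 p53 targets. Without AAV-Cre library 2 these medians were 0.36, 0.35, 0.60, -0.15 and 0.06 in the same order. Centring of the libraries turned the median of the Notch and Wnt list to -0.04. Eef1a1, an elongation factor, had a signal of 723, 738 and 712 in AAV-GFP mice and 933, 982 and 979.9 in AAV-Cre mice (log2 FC 0.41 ± 0.13, FDR 0.232), higher without overlap and by a similar amount in each AAV-Cre library, but not called.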
